A study of Mus musculus with 12 samples.

Results

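The TGF beta and BMP pathway was examined in the hearts of MHC-CELFΔ mice through a list of 41 genes for its ligands, receptors, latent binding proteins, antagonists, SMADs and first targets, taken by gene symbol. The arrays measured 39 of the 41 genes with 45 distinct features, of 19013 genes and 30854 features in all, where a feature is 1 or more probe IDs that share the same values on every array. Inhbb and Smad4 were not analysed here. Of the 39 genes, 11 were ligands, 8 receptors, 6 latency and matrix proteins, 4 antagonists, 6 SMADs and 4 were Id1, Id2, Id3 and Ski.

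Ligands of the TGF beta family are secreted dimers. The TGF betas leave the cell bound to their own propeptide and to a latent TGF beta binding protein, which holds them in the extracellular matrix until they are released. A released ligand joins type II and type I receptor kinases, which phosphorylate SMAD2 and SMAD3 downstream of the TGF betas and activins, or SMAD1 and SMAD5 downstream of the BMPs. In the heart the pathway is known for its part in valve and septum formation and in the activation of fibroblasts, which lay down matrix after injury.

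CELF proteins bind RNA and steer alternative splicing. In MHC-CELFΔ mice their activity in cardiomyocyte nuclei is blocked by a dominant negative transgene, which the α-myosin heavy chain promoter turns on once the animals are born. The line MHC-CELFΔ-574 has the milder and the line MHC-CELFΔ-10 the more severe heart disease, with less and more of the transgenic protein. Both were kept as hemizygotes. Total RNA of whole hearts from FVB/N females at 3 weeks of age was measured with Illumina MouseWG-6 v2.0 BeadChips, with a separate heart on each of the 12 arrays. There were 4 groups of 3 hearts: mild line females, severe line females, and the wild type littermates of each. Both lines were set against the same 6 wild type hearts, so these comparisons share their controls, and the lines were also compared with each other. Values are normalized log2 signals, and a difference of 1 on this scale is a 2-fold change. A feature was called changed at an adjusted p under 0.05 from limma, adjusted over all 30854 features. Each line had n = 3 and wild type n = 6, unless own littermates, littermate groups (n = 3 each) or left-out arrays are named. These p-values measure the spread between hearts of different animals.

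The median raw intensity per array ran from 103 to 106 in mild line hearts and from 116 to 119 in severe line hearts, against 103 to 112 in wild type hearts. The background level was set at 6.32, the 95th percentile of the means of 1090 olfactory receptor features, and 33 of the 45 member features had a mean above it, against 44.0% of all features. All 5 measured cardiomyocyte markers were above that level. Of them only Ryr2 was called in the lines, lower in mild line hearts (log2 fold change -1.11, limma, adjusted p = 3.95e-07) and in severe line hearts (-0.49, adjusted p = 0.00412). Tnni3 was higher in mild line littermates than in severe line littermates (0.61, adjusted p = 0.0299). Among marker lists, 3 of 4 atrial genes were lower in mild line hearts, and their summed signal ran from 55070 to 60900 there and from 68890 to 71580 in severe line hearts, against 69750 to 76610 in wild type. The 7 fibroblast genes summed to 9126 to 12090 in mild line hearts and 10320 to 10820 in severe line hearts, against 8311 to 9791 in wild type, with only Col1a1 called, in severe line hearts, and Postn not above background. The 6 smooth muscle genes summed to 6375 to 7036 in mild line hearts and 9626 to 13440 in severe line hearts, against 6842 to 9666 in wild type. The sums are of unlogged signals, so Acta2, the brightest of the 6, weighs most in this one. Only Acta2 was called in mild line hearts (lower), and only Acta2 and Tagln in severe line hearts (higher). The median log2 fold change of the 6 was 0.05 in mild line hearts and 0.04 in severe line hearts. The part of these cell types in the results below was not tested. In whole hearts, fewer cells of a type and less RNA per cell cannot be told apart.

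In the mild line, 6 of the 45 member features were called (13.3%), against 3.55% of all features. Tgfb2, Tgfb3, Bmp4 and Ltbp3 were higher, and Inhba and Ltbp1 were lower. In the severe line, 4 of the 45 were called (8.89%), against 3.30% of all features. These were Tgfb2, Ltbp3, Fstl3 and Id2, all higher. Between the lines 1 feature of 45 was called, for Id2, against 1.37% of all features, and between mild line littermates and severe line littermates 0 were called by limma, against 0.0875%. At an unadjusted p under 0.05 there were 14 of the 45 in mild line hearts, against 12.3% of all features, 10 in severe line hearts, against 13.5%, 7 between the lines, against 12.4%, and 7 between the littermates, against 9.96%. Of the features above the background level, the called share in the whole table was 7.83% in mild line hearts and 7.21% in severe line hearts. For the 33 member features above it, the share was 18.2% in mild line hearts and 12.1% in severe line hearts. The median log2 fold change over the 45 member features was 0.02 in mild line hearts and 0.04 in severe line hearts, with a median close to 0 over all features in both. No member's measured change reached 2-fold in either line. With median scaling of the arrays in place of quantile normalization, 3 members were called in mild line hearts and 2 in severe line hearts. Over all 30854 features, 806 were then called in mild line hearts, against 1096 as reported, and 1127 in severe line hearts, against 1019. The share of higher features among all those called in severe line hearts was then 24.0%, against 52.9% as reported, and in the comparison of the lines 67.6%, against 43.6%.

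**Figure D1:**
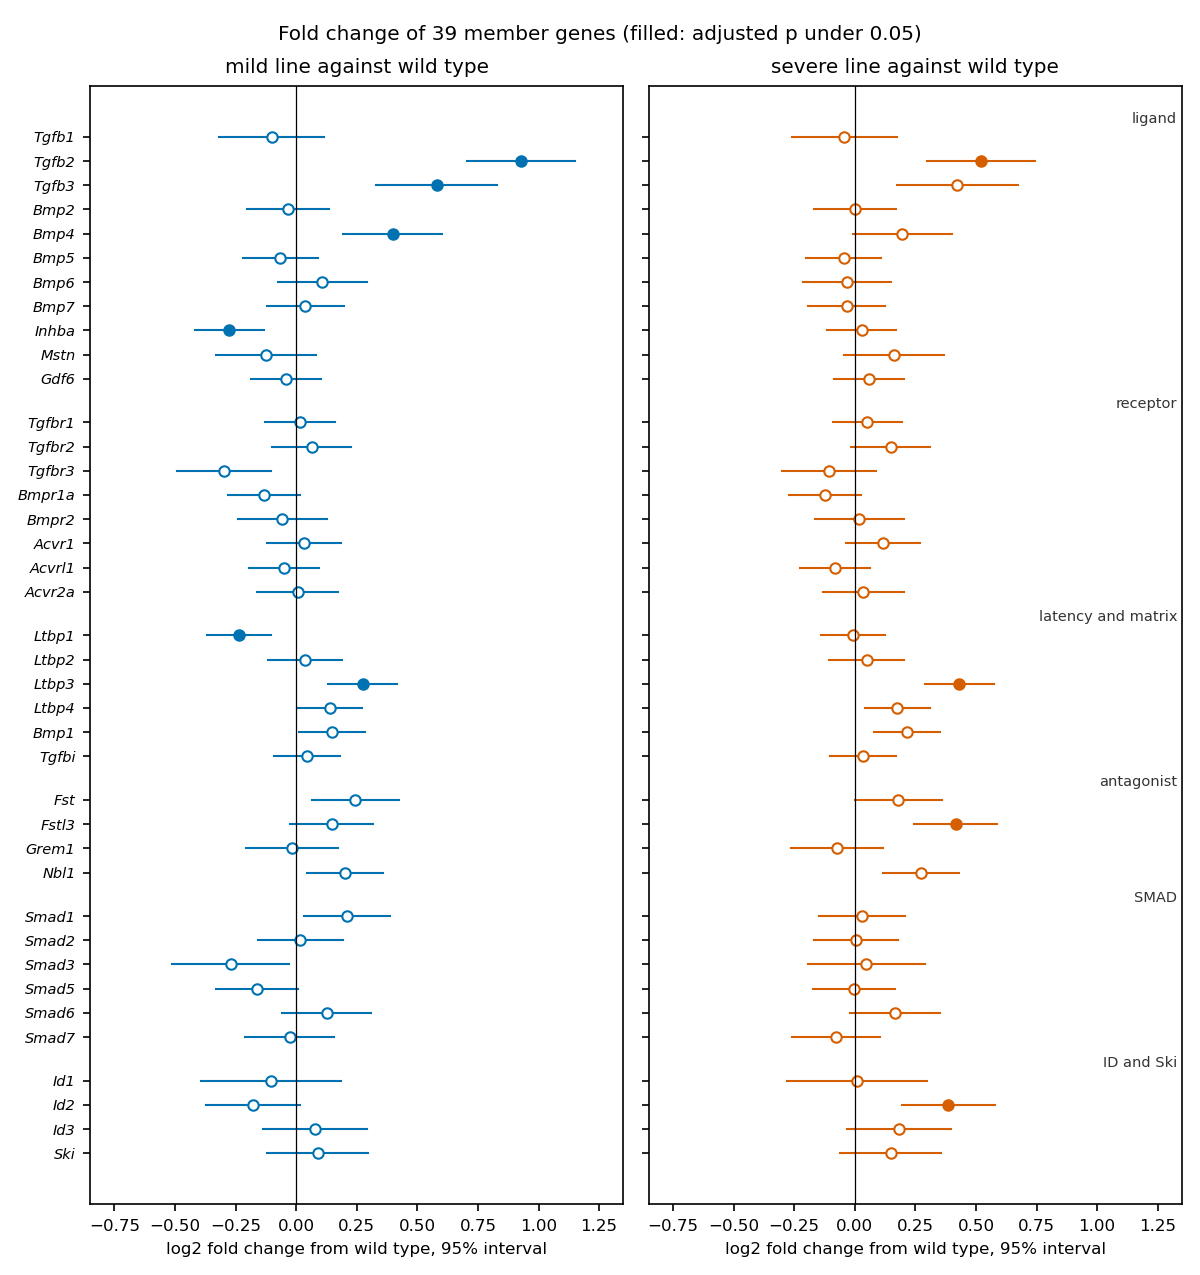
Log2 fold change from wild type (x axis) of each of the 39 member genes (y axis, grouped by role) in mild line hearts (left) and the severe line (right), with the gene's brightest feature, lines for 95% intervals from limma and filled points for an adjusted p under 0.05. The filled points on the left are Tgfb2, Tgfb3, Bmp4 and Ltbp3 above 0 and Inhba and Ltbp1 below it, those on the right are Tgfb2, Ltbp3, Fstl3 and Id2, and no receptor or SMAD is filled.

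Tgfb2, Ltbp3 and Fstl3 each had a call in 1 line that was lost under at most 1 of 23 other ways of processing or choosing the arrays, and their promoters are shown for that reason. The sequences are from RefSeq on the GRCm38.p6 build, 250 bases before to 50 after the annotated start, 5′ to 3′ on the gene's strand. Capitals mark CAGAC or its reverse complement GTCTG, the short element that SMAD3 and SMAD4 are known to bind. The Tgfb2 promoter lies at chr1:186705940-186706239 on the minus strand, that of Ltbp3 at chr19:5740650-5740949 on the plus strand and that of Fstl3 at chr10:79777024-79777323 on the plus strand.
Tgfb2: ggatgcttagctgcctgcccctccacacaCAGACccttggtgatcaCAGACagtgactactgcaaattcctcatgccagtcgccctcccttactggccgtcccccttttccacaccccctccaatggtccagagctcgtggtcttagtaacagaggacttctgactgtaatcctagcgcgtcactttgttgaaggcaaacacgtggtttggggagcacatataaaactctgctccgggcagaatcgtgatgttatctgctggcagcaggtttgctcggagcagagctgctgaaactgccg
Ltbp3: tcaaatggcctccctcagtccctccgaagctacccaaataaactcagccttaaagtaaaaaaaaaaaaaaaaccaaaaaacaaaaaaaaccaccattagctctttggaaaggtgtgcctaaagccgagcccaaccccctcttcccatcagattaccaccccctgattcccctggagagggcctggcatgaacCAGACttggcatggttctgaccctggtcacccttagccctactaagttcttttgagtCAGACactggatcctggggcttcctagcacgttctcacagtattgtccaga
Fstl3: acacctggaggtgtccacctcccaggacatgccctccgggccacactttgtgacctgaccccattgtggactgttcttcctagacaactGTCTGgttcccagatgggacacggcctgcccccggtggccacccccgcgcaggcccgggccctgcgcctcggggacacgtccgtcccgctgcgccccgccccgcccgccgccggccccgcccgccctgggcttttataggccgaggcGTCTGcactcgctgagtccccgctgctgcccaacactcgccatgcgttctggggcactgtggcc

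Each of the 3 promoters holds this element 2 times. CAGAC on either strand was in 17 of 34 promoters of the 28 member genes with an entry, against 49.6% of 32851 promoters of the same length, and 2 or more copies were in 9 of the 34, against 16.2%. The palindrome GTCTAGAC was in 1 member promoter, that of Smad6, against 0.213% of all. The letters GGCGCC, a GC-rich element of SMAD1 and SMAD5, were in 12 of 34, against 11.9%, and the CArG box, the site of serum response factor, was in 0 of 34, against 1.63%. Some genes had several promoters, and overlapping promoters of Ltbp4 and of Smad5 that hold GGCGCC were counted separately. Both strands were searched, and a match is a description of these letters, not a site.

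Among the ligands, Tgfb2 had the largest change of any member in either line. Tgfb2, 1 of the 3 TGF beta isoforms and a factor of heart valve formation, gave log2 signals of 8.14, 8.04 and 8.22 in mild line hearts and 7.58, 7.63 and 7.98 in severe line hearts, against 6.85 to 7.37 with a median of 7.27 in wild type hearts. Every transgenic heart was above every wild type heart, and the mild line hearts were above those of the severe line. The log2 fold change was 0.93 in mild line hearts (adjusted p = 1.9e-05, SE 0.106) and 0.52 in severe line hearts (adjusted p = 0.00756, SE 0.106). The difference of the lines, 0.41 (95% interval 0.15 to 0.66), did not pass the test (adjusted p = 0.128). Against their own 3 littermates the log2 fold changes of Tgfb2 were 0.80 in mild line hearts (adjusted p = 0.000239) and 0.65 in severe line hearts (adjusted p = 0.00254). The call in severe line hearts was lost when severe line replicate 3 was left out (0.40, adjusted p = 0.0783) and under median scaling (0.44, adjusted p = 0.0632), while that in mild line hearts held under all 23 other settings.

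Tgfb3, the isoform known for its part in palate fusion, read 8.12, 8.49 and 8.51 in mild line hearts and 8.24, 8.33 and 8.09 in severe line hearts, against 7.53 to 8.15 with a median of 7.83 in wild type. Only 1 wild type heart, replicate 1 of the severe line's littermates, reached into the range of the lines. Tgfb3 rose by 0.58 in mild line hearts (adjusted p = 0.00705, SE 0.119). In the severe line its log2 fold change was 0.42 (adjusted p = 0.0627, SE 0.119), with a difference between the lines of 0.16 (adjusted p = 0.719). The call for Tgfb3 in mild line hearts was lost when mild line replicate 2 (0.52, adjusted p = 0.0726) or replicate 3 (0.51, adjusted p = 0.0688) was left out, and when only the 3 littermates of that line served as controls (0.53, adjusted p = 0.0542). In the severe line it was reached without the high wild type heart (0.49, adjusted p = 0.0126).

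Tgfb1, which encodes the isoform best known for fibrosis, was not called. Its log2 fold changes were -0.10 in mild line hearts (95% interval -0.32 to 0.12, adjusted p = 0.802) and -0.04 in severe line hearts (95% interval -0.26 to 0.17, adjusted p = 0.919), with signals of 7.22 to 7.66 and a median of 7.49 in wild type.

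Bmp4 was the only BMP ligand called. Bmp4, a growth factor of heart and limb patterning, read 8.14, 8.16 and 8.51 in mild line hearts and 8.03, 8.14 and 8.04 in severe line hearts, against 7.64 to 8.06 with a median of 7.92 in wild type. The 3 mild line hearts were all above the wild type hearts, and the severe line hearts overlapped them at their lower end. Bmp4 rose by 0.40 in mild line hearts (adjusted p = 0.0265, SE 0.098), and its log2 fold change in severe line hearts was 0.20 (adjusted p = 0.403, SE 0.098). The call ended when mild line replicate 3 was left out (0.28, adjusted p = 0.241), when replicate 2 of the severe line littermates was (0.36, adjusted p = 0.0514), and with its own littermates as the only controls (0.38, adjusted p = 0.113). Bmp5 and Bmp6 lay close to the background level in wild type, with medians of 6.49 and 6.37, and had log2 fold changes between -0.07 and 0.11 in mild line hearts and of -0.05 and -0.03 in severe line hearts. Bmp2, Bmp7, Mstn and Gdf6 were not above the background level.

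Inhba went the other way in mild line hearts. It encodes the βA chain of activin A, a ligand that signals through SMAD2 and SMAD3. Its signals were 6.52, 6.50 and 6.54 in mild line hearts and 6.76, 6.75 and 6.96 in severe line hearts, against 6.69 to 6.90 with a median of 6.81 in wild type. The 3 mild line hearts were below all other hearts and the severe line lay within or above the wild type range. Inhba fell by 0.28 in mild line hearts (adjusted p = 0.0272, SE 0.068), and its log2 fold change in severe line hearts was 0.03 (adjusted p = 0.921, SE 0.068). The lines differed by -0.30 (95% interval -0.47 to -0.14, adjusted p = 0.0647). The call for Inhba ended without any 1 of the mild line hearts (adjusted p = 0.0978, 0.14 and 0.0848 without replicates 1, 2 and 3), when mild line littermate replicate 2 (-0.27, adjusted p = 0.0521) or severe line littermate replicate 3 (-0.26, adjusted p = 0.0542) was omitted, and with its own littermates as the only controls (-0.27, adjusted p = 0.0982).

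**Figure D2:**
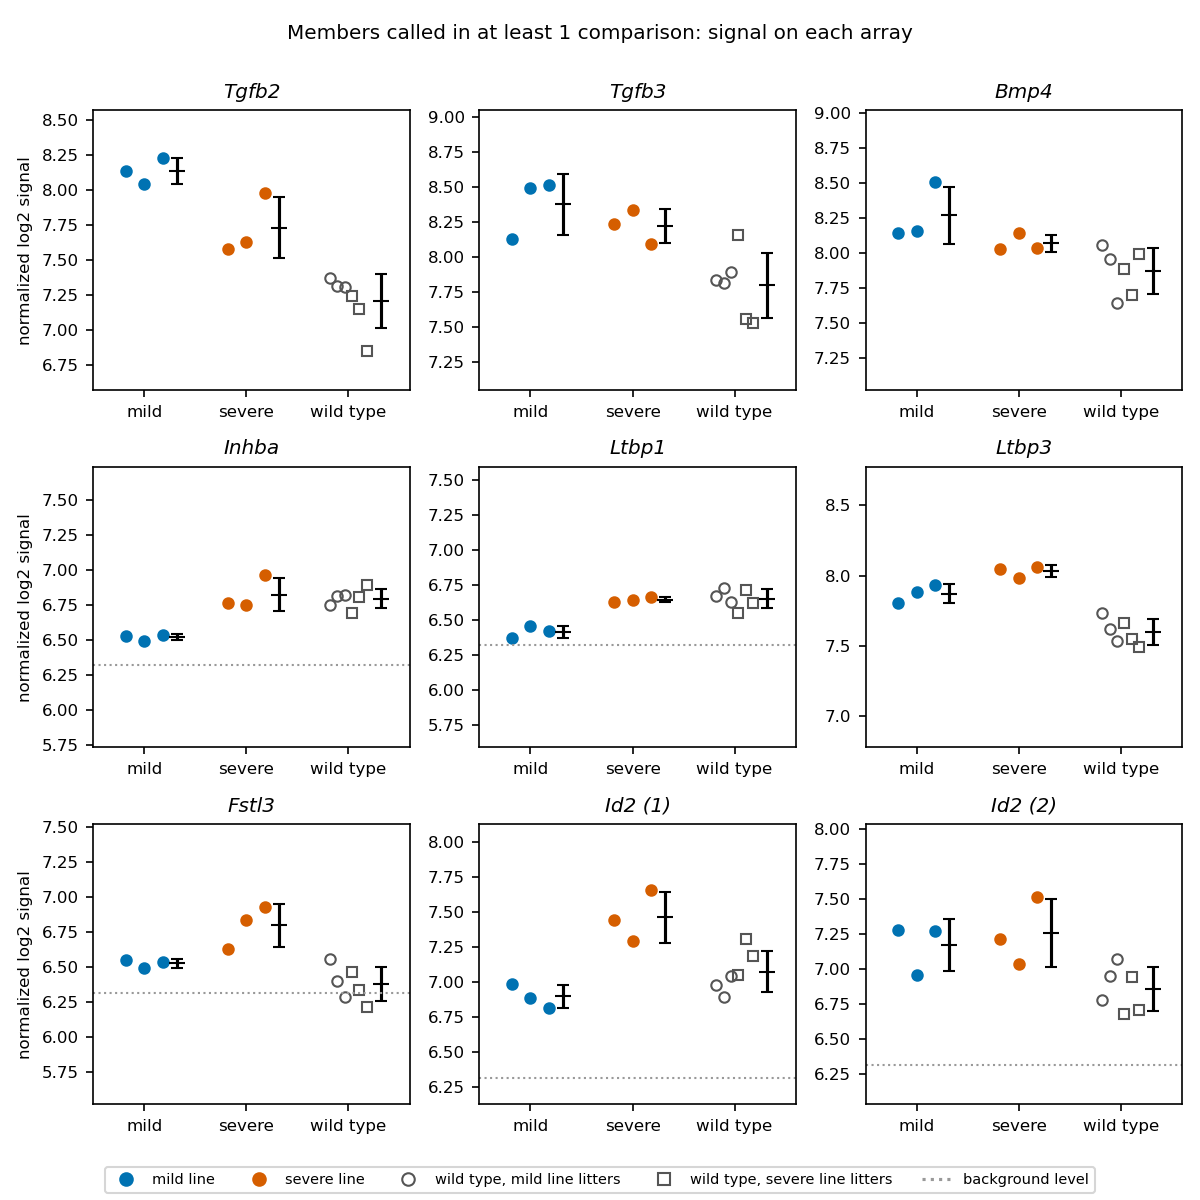
Normalized log2 signal (y axis, 2 units in each panel) on each mild line, severe line and wild type array for the 8 genes called in at least 1 comparison, with both Id2 features; bars give the mean and SD and the dotted line the background level of 6.32. Tgfb2 and Ltbp3 are above every wild type heart in all 6 transgenic hearts, Inhba and Ltbp1 are lowest in the 3 mild line hearts, and the first Id2 feature is higher in severe line hearts than in mild line hearts.

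The receptors held 0 called features by limma in either line or between the lines, and at an unadjusted p under 0.05 there was 1 of 11 in mild line hearts, against 12.3% of all features, and 0 in the other comparisons of the lines. Over their 11 features, log2 fold changes ran from -0.30 to 0.08 in mild line hearts and from -0.14 to 0.15 in severe line hearts. Tgfbr3, which encodes betaglycan, the coreceptor that presents TGF beta 2 to the signaling receptors, came nearest to a call. Its signals were 8.39, 8.16 and 8.02 in mild line hearts and 8.31, 8.41 and 8.43 in severe line hearts, against 8.21 to 8.63 with a median of 8.51 in wild type. The mild and wild type hearts overlapped, and the log2 fold change in mild line hearts was -0.30 (95% interval -0.49 to -0.10, adjusted p = 0.0986). It passed the test without replicate 2 of the severe line's littermates (-0.35, adjusted p = 0.0181) or without mild line replicate 1 (-0.40, adjusted p = 0.0393).

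Tgfbr2, the type II receptor of the TGF betas, had a median of 8.73 in wild type and log2 fold changes of 0.06 in mild line hearts (95% interval -0.10 to 0.23) and 0.15 in severe line hearts (95% interval -0.02 to 0.31). For Bmpr1a, a type I receptor of the BMPs, they were -0.13 (95% interval -0.28 to 0.02) and -0.12 (95% interval -0.27 to 0.03). Bmpr2, the type II receptor of the BMPs, had 1 feature at a median of 10.58 in wild type, with log2 fold changes of -0.06 in mild line hearts and 0.02 in severe line hearts, and a second feature that was not above the background level. The intervals of all 11 receptor features lay between -0.49 and 0.23 in mild line hearts and between -0.31 and 0.31 in severe line hearts. Of the 11 features, 4 were not above the background level, where changes are understated.

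Of the genes that hold latent TGF beta, Ltbp3 was higher in both lines. Ltbp3 encodes a latent TGF beta binding protein. It read 7.80, 7.88 and 7.93 in mild line hearts and 8.04, 7.98 and 8.06 in severe line hearts, against 7.49 to 7.73 with a median of 7.58 in wild type hearts. All 6 transgenic hearts were above all 6 wild type hearts, with the severe line highest. Ltbp3 rose by 0.27 in mild line hearts (adjusted p = 0.0281, SE 0.068) and by 0.43 in severe line hearts (adjusted p = 0.000801, SE 0.068). The difference of the lines was -0.16 (95% interval -0.32 to 0.01, adjusted p = 0.43). The call for Ltbp3 in severe line hearts held under all 23 other settings. That in mild line hearts ended under 10 of the 23, among them the line's own littermates (0.24, adjusted p = 0.16), median scaling (0.24, adjusted p = 0.254) and the omission of mild line replicate 2 or 3, replicate 3 of its littermates, or replicate 2 or 3 of the severe line's littermates (adjusted p = 0.0526 to 0.16).

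Ltbp1, another latent TGF beta binding protein, read 6.37, 6.45 and 6.42 in mild line hearts and 6.63, 6.64 and 6.66 in severe line hearts, against 6.55 to 6.73 with a median of 6.65 in wild type. The mild line hearts were below all others, and close to the background level of 6.32. Ltbp1 fell by 0.24 in mild line hearts (adjusted p = 0.0427, SE 0.062), while its log2 fold change in severe line hearts was -0.01 (adjusted p = 0.984). The lines differed by -0.23 (adjusted p = 0.149). This call was the least firm of all: it ended under 17 of 23 other settings, among them the omission of any 1 array but replicate 1 of the severe line's littermates (adjusted p = 0.0531 to 0.202).

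Ltbp4 and Bmp1 lay above all wild type hearts in severe line hearts without passing the test. Ltbp4, also a latent TGF beta binding protein, read 10.57, 10.58 and 10.41 in mild line hearts and 10.57, 10.58 and 10.52 in severe line hearts, against 10.31 to 10.46 in wild type. Its log2 fold changes were 0.14 in mild line hearts (adjusted p = 0.388) and 0.17 in severe line hearts (adjusted p = 0.19). Bmp1 encodes a protease that cleaves procollagens and the BMP antagonist chordin, and is no ligand. It read 8.93, 8.98 and 8.84 in mild line hearts and 9.01, 8.98 and 8.96 in severe line hearts, against 8.65 to 8.88 in wild type, with log2 fold changes of 0.15 (adjusted p = 0.34) and 0.22 (adjusted p = 0.0877). Tgfbi, a matrix protein induced by TGF beta, had a median of 9.04 in wild type and log2 fold changes of 0.04 in each line. Ltbp2 was not above the background level.

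Fstl3 was the antagonist that changed. It encodes a secreted follistatin-like protein that binds activins and myostatin. Fstl3 read 6.55, 6.49 and 6.54 in mild line hearts and 6.63, 6.83 and 6.93 in severe line hearts, against 6.22 to 6.56 with a median of 6.37 in wild type. The wild type signals were thus close to the background level of 6.32, some of them below it. The severe line hearts were above all wild type hearts, and the mild line hearts were within the upper part of the wild type range. Fstl3 rose by 0.42 in severe line hearts (adjusted p = 0.0056, SE 0.081), and its log2 fold change in mild line hearts was 0.15 (adjusted p = 0.515, SE 0.081). The difference of the lines, -0.27 (95% interval -0.47 to -0.07), did not pass the test (adjusted p = 0.205). Of the 23 other settings only the omission of severe line replicate 3 ended the call in severe line hearts (0.35, adjusted p = 0.0571).

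Nbl1, a BMP antagonist of the DAN family, read 8.19, 8.13 and 7.95 in mild line hearts and 8.20, 8.10 and 8.19 in severe line hearts, against 7.75 to 8.01 in wild type. All severe line hearts were above the wild type hearts. The log2 fold change was 0.20 in mild line hearts (adjusted p = 0.215) and 0.27 in severe line hearts (adjusted p = 0.0536), and in severe line hearts it passed the test under 7 of 23 other settings. Fst, which encodes follistatin, read 6.55, 6.52 and 6.53 in mild line hearts, above all wild type hearts at 6.07 to 6.45, with a log2 fold change of 0.24 (adjusted p = 0.167). In the severe line that of Fst was 0.18 (adjusted p = 0.365). The wild type median of Fst, 6.28, was below the background level. Grem1, the BMP antagonist gremlin, was not above the background level.

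Counted by separation alone, the mild line hearts lay all above or all below the 6 wild type hearts in 7 of the 45 member features, against 7.52% of all features. The severe line hearts did so in 6 of the 45, against 7.21%. The 7 were Tgfb2, Bmp4, Ltbp3 and Fst above and Inhba, Ltbp1 and Smad3 below. The 6 were Tgfb2, Ltbp3, Ltbp4, Bmp1, Fstl3 and Nbl1, all above.

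**Figure D3:**
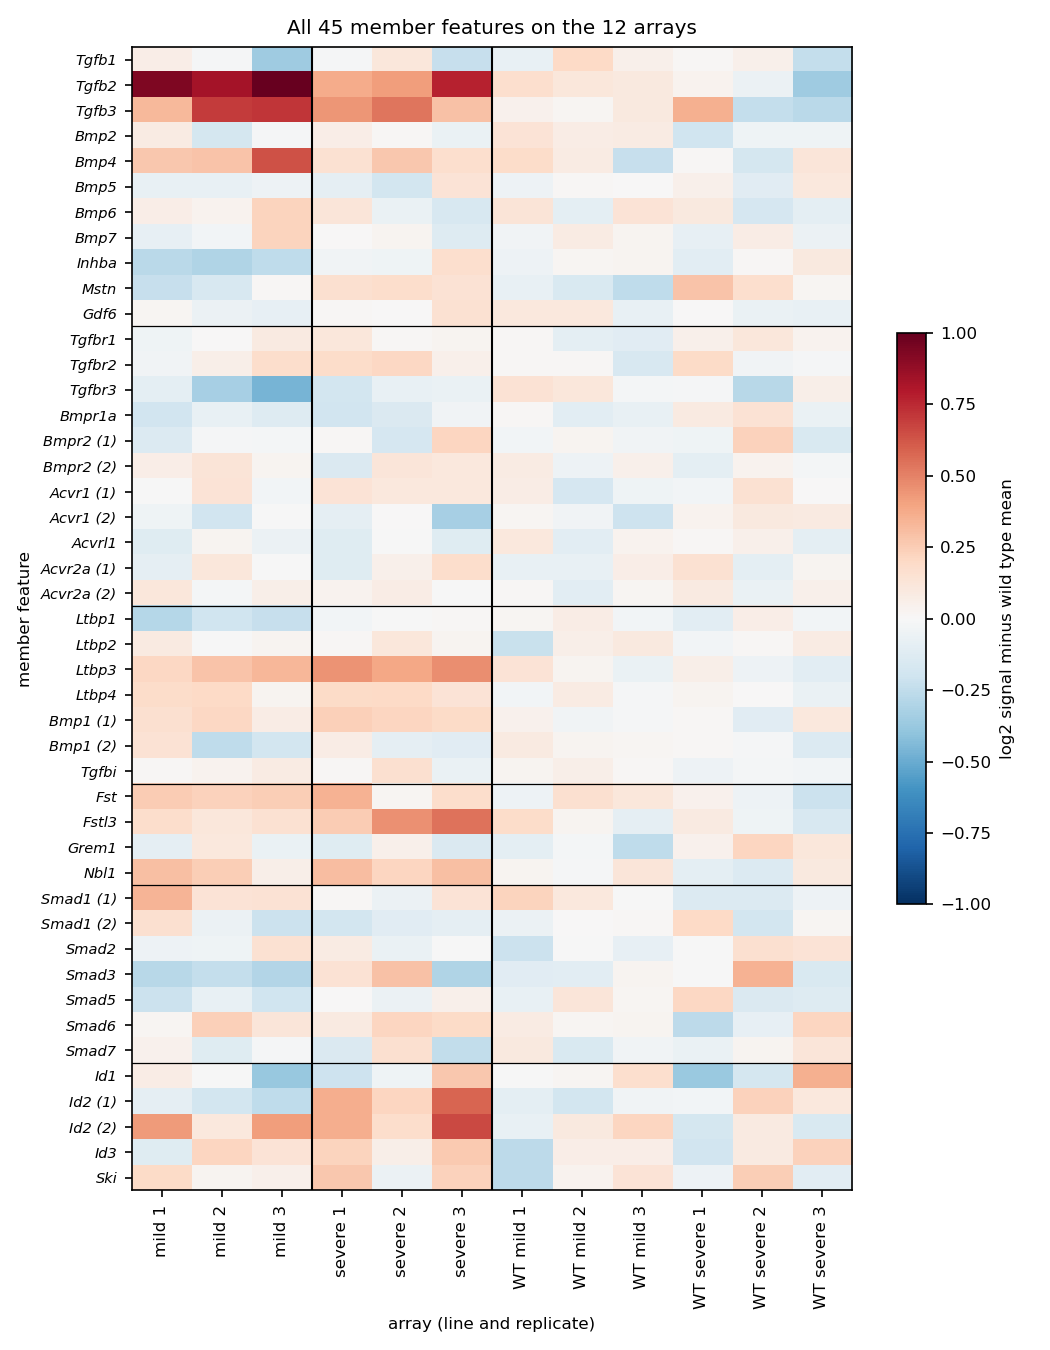
Log2 signal minus the mean of the 6 wild type arrays (color scale from -1 to 1) for the 45 member features (y axis, in the order ligands, receptors, latency and matrix, antagonists, SMADs, Id genes and Ski, split by lines) on the 12 arrays (x axis; WT mild and WT severe are the littermates of each line). The deepest color is that of Tgfb2 in the 3 mild line hearts, and the receptor and SMAD blocks show no column that sets a line apart.

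The SMADs held 0 called features by limma in any comparison, and at an unadjusted p under 0.05 there were 2 of 7 in mild line hearts, 0 in severe line hearts, 1 between the lines and 2 between the littermates, against 9.96% to 13.5% of all features. Over their 7 features, log2 fold changes ran from -0.27 to 0.21 in mild line hearts and from -0.13 to 0.16 in severe line hearts. Smad3, which carries the signal of TGF betas and activins to the nucleus, read 8.57, 8.60 and 8.55 in mild line hearts and 8.99, 9.14 and 8.55 in severe line hearts, against 8.69 to 9.19 with a median of 8.79 in wild type. The mild line hearts were below all wild type hearts, and severe line replicate 3 was as low. The log2 fold change of Smad3 in mild line hearts was -0.27 (95% interval -0.51 to -0.03, adjusted p = 0.319) and in severe line hearts 0.05 (adjusted p = 0.921).

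Smad2, the partner of Smad3, had log2 fold changes of 0.02 in mild line hearts (95% interval -0.16 to 0.19) and 0.01 in severe line hearts (95% interval -0.17 to 0.18). Smad1, a BMP SMAD, had 2 features. Its brighter one was at 0.21 in mild line hearts (adjusted p = 0.281) and 0.03 in severe line hearts, and the other, close to the background level, at -0.04 (adjusted p = 0.93) and -0.13 (adjusted p = 0.581). The other BMP SMAD was Smad5, at -0.16 (adjusted p = 0.442) and -0.0017. Of the inhibitory SMADs, Smad6 was at 0.13 in mild line hearts and 0.16 in severe line hearts, and Smad7 was not above the background level. The intervals of all 7 features lay between -0.51 and 0.39 in mild line hearts and between -0.31 and 0.35 in severe line hearts.

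The Id genes encode helix-loop-helix proteins that block other factors from DNA, and are known targets of BMP signaling. Id2 had 2 features that did not behave alike. The first read 6.99, 6.89 and 6.82 in mild line hearts and 7.44, 7.29 and 7.66 in severe line hearts, against 6.89 to 7.31 with a median of 7.05 in wild type. The severe line was above the mild line in every heart, and 1 wild type heart reached into the severe range. On this feature Id2 rose by 0.39 in severe line hearts (adjusted p = 0.0235, SE 0.092), its log2 fold change in mild line hearts was -0.18 (adjusted p = 0.466, SE 0.092), and the lines differed by -0.56 (adjusted p = 0.00886, SE 0.106). The call between the lines ended when severe line replicate 3 (-0.47, adjusted p = 0.0534) or mild line replicate 3 (-0.52, adjusted p = 0.0624) was omitted, and as a difference of own-littermate effects (-0.36, adjusted p = 0.544).

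The second feature of Id2 read 7.28, 6.96 and 7.27 in mild line hearts and 7.22, 7.04 and 7.52 in severe line hearts, against 6.68 to 7.07 with a median of 6.86 in wild type. On it both lines overlapped wild type only at their lowest heart. The log2 fold changes were 0.32 in mild line hearts (adjusted p = 0.158, SE 0.108) and 0.40 in severe line hearts (adjusted p = 0.0505, SE 0.108), with a difference between the lines of -0.09 (adjusted p = 0.853). With both features averaged, Id2 was higher in severe line hearts by 0.39 (adjusted p = 0.0164), and the difference of the lines was -0.32 (adjusted p = 0.145). The severe line call on the first feature ended when severe line replicate 1 (0.40, adjusted p = 0.0922), severe line replicate 3 (0.29, adjusted p = 0.174) or mild line littermate replicate 2 (0.35, adjusted p = 0.0532) was omitted, and with severe line littermates as the only controls (0.28, adjusted p = 0.173). The second feature passed the test in severe line hearts under 7 of 23 other settings, among them severe line littermates as the only controls (0.48, adjusted p = 0.047).

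Id1 spread over 9.12 to 9.85 in wild type and had log2 fold changes of -0.10 in mild line hearts (95% interval -0.39 to 0.19) and 0.01 in severe line hearts (95% interval -0.28 to 0.30). For Id3 they were 0.08 (adjusted p = 0.857) and 0.18 (adjusted p = 0.484). Ski, a corepressor that binds SMADs, was at 0.09 (adjusted p = 0.821) and 0.15 (adjusted p = 0.586).

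**Figure D4:**
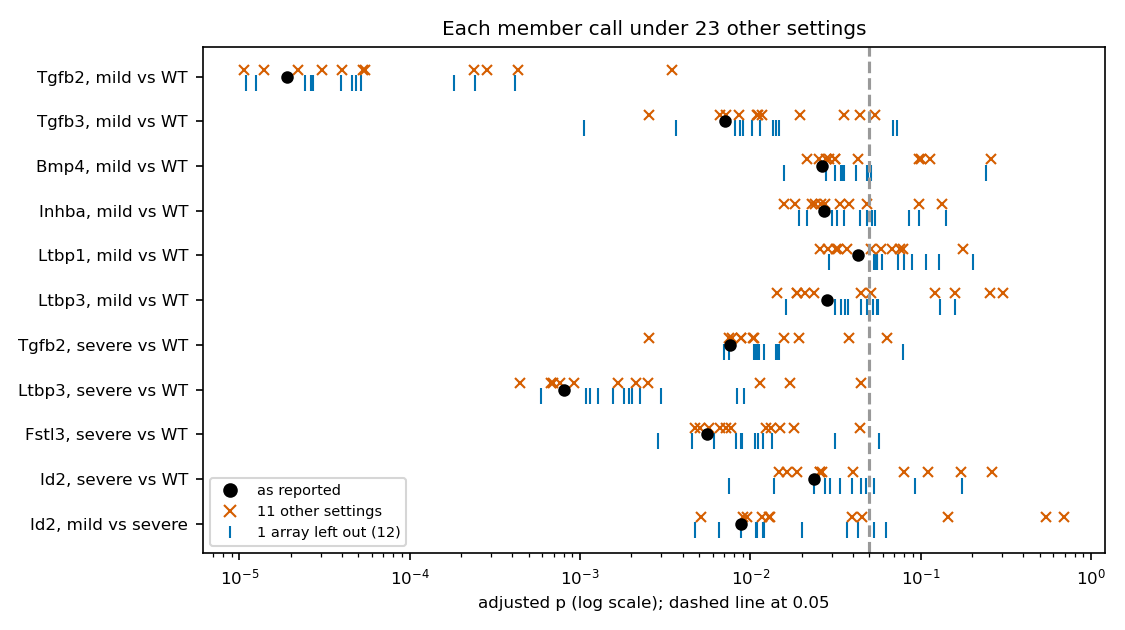
Adjusted p from limma (x axis, log scale, dashed line at 0.05) of each of the 11 member calls (y axis; WT is wild type) as reported (black points), under 11 other settings (crosses) and with each of the 12 arrays left out (ticks). All marks of Tgfb2 in mild line hearts and of Ltbp3 in severe line hearts stay left of the dashed line, and those of Ltbp1 in mild line hearts fall on both sides of it.

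A further list of 106 genes of the pathway that are not members had 93 genes on the arrays, with 106 features. In the mild line 2 of these features rose and 3 fell, and in severe line hearts 10 rose and 2 fell, against 1.62% of all features higher and 1.93% lower in mild line hearts and 1.75% higher and 1.56% lower in severe line hearts. Of the 19 features for other ligands, 0 were called by limma, with 4 at an unadjusted p under 0.05 in mild line hearts, against 12.3% of all features, and 1 in severe line hearts, against 13.5%. The listed ligand Gdf15 had no feature under that symbol here and is not in this count. The study names it among the genes changed at least 2-fold in MHC-CELFΔ hearts. Bgn and Fkbp1a were the features higher in both lines. Bgn, a matrix proteoglycan that binds TGF beta, rose by 0.41 in mild line hearts (adjusted p = 0.0111) and by 0.57 in severe line hearts (adjusted p = 0.000679). Fkbp1a, which encodes the protein that keeps type I receptors silent and also binds the ryanodine receptor, rose by 0.30 (adjusted p = 0.0365) and by 0.46 (adjusted p = 0.00138). The calls in mild line hearts ended for both without mild line replicate 2 (Bgn 0.34, adjusted p = 0.116, Fkbp1a 0.23, adjusted p = 0.281) or 3, and for Fkbp1a also without mild line replicate 1, replicate 1 or 2 of the severe line littermates or replicate 2 of the mild line littermates (adjusted p = 0.0582 to 0.0702). With median scaling Fkbp1a was called in neither line (mild line 0.23, adjusted p = 0.248, severe line 0.29, adjusted p = 0.0721). With the littermates of the mild line as the only controls, neither Bgn (0.40, adjusted p = 0.0511) nor Fkbp1a (0.26, adjusted p = 0.199) was called there.

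Of the 18 features for 16 TGF beta target genes, 6 were called higher and 0 lower in severe line hearts, and 0 higher and 1 lower in mild line hearts. Of all features, 1.75% were called higher and 1.56% lower in severe line hearts, and 1.62% higher and 1.93% lower in mild line hearts. Only 3 of the 18 target features were not above the background level. Among all features above that level, 7.21% were called in severe line hearts and 7.83% in mild line hearts, in either direction. At an unadjusted p under 0.05 there were 11 of the 18 in severe line hearts, against 13.5% of all features, and 6 in mild line hearts, against 12.3%. In the comparison of the lines 4 of the 18, for Lox, Timp1, Tagln and Acta2, were lower in the mild line, against 1.37% of all features in either direction. As a difference of own-littermate effects none of Lox, Timp1 and Tagln was called. Timp1 went to -0.49 (adjusted p = 0.78) there, against -0.94 (adjusted p = 0.0468) as reported, and its call was lost under 15 of 23 other settings, among them the authors' log2 table (adjusted p = 0.0622). Tagln went to -0.52 (adjusted p = 0.234), against -0.57 (adjusted p = 0.00497). The 6 higher in severe line hearts were Lox, Timp1, Cdkn1a, Tagln, Acta2 and Col1a1. Ctgf, also listed as a target, had no feature under that symbol here and is not in these counts. The study reports it as higher in both lines. Lox, the collagen crosslinking enzyme, read 7.74, 7.93 and 7.73 in mild line hearts and 8.44, 8.43 and 8.40 in severe line hearts, against 7.23 to 7.84 in wild type, a rise of 0.88 in severe line hearts (adjusted p = 3.28e-05) with 0.25 in mild line hearts (adjusted p = 0.262). Its difference of the lines, -0.63 (adjusted p = 0.00807), was -0.38 (adjusted p = 0.549) as a difference of own-littermate effects and -0.59 (adjusted p = 0.0539) without mild line replicate 3. Timp1, an inhibitor of matrix proteases, rose by 1.14 in severe line hearts (adjusted p = 0.00186) with 0.20 in mild line hearts (adjusted p = 0.789), and Cdkn1a, the cell cycle inhibitor p21, by 0.85 (adjusted p = 0.000558) with 0.38 (adjusted p = 0.149). Of the collagens Col1a1 rose by 0.48 in severe line hearts (adjusted p = 0.0114), a call that was lost when severe line replicate 1 (0.42, adjusted p = 0.107) or replicate 2 (0.46, adjusted p = 0.0517) was omitted, or with median scaling (0.36, adjusted p = 0.11).

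Acta2, smooth muscle actin, fell in mild line hearts and rose in severe line hearts. It read 11.97, 12.05 and 12.04 in mild line hearts and 13.16, 12.98 and 13.43 in severe line hearts, against 12.27 to 12.83 in wild type, so the 3 groups did not overlap. The log2 fold changes were -0.56 (adjusted p = 0.0156) and 0.61 (adjusted p = 0.00818), and the lines differed by -1.17 (adjusted p = 0.000172). The littermates of the mild line differed from those of the severe line by -0.48 (adjusted p = 0.0634), and against own littermates the change in mild line hearts was -0.32 (adjusted p = 0.108) and in severe line hearts 0.38 (adjusted p = 0.042). The call for Acta2 in mild line hearts ended without any 1 of those 3 hearts (adjusted p = 0.0645 to 0.0821) and that in severe line hearts without severe line replicate 3 (0.49, adjusted p = 0.0806) or with median scaling (0.45, adjusted p = 0.0546). Tagln, another smooth muscle gene, rose by 0.70 in severe line hearts (adjusted p = 6.31e-05), with 0.13 in mild line hearts (adjusted p = 0.623). Acta2, Tagln and Col1a1 are also markers of smooth muscle and fibroblasts, whose summed signals are given above. Those sums include these genes themselves, and Acta2 weighs most in the smooth muscle sum.

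The 12 BMP target genes had 13 features, of which 1 was called lower and 0 higher in mild line hearts, and 1 lower and 1 higher in severe line hearts. Of all features, 1.93% were called lower and 1.62% higher in mild line hearts, and 1.56% lower and 1.75% higher in severe line hearts. The lower BMP target was Hamp in both lines. Hamp encodes hepcidin, the hormone of iron balance, and read 8.65, 8.01 and 8.83 in mild line hearts and 9.19, 10.12 and 9.74 in severe line hearts, against 10.10 to 10.60 in wild type. It fell by 1.85 in mild line hearts (adjusted p = 1.93e-06) and by 0.66 in severe line hearts (adjusted p = 0.0446), with a difference of the lines of -1.19 (adjusted p = 0.00434), which was -1.30 (adjusted p = 0.0867) as a difference of own-littermate effects. The call of Hamp in severe line hearts ended when severe line replicate 1 (-0.41, adjusted p = 0.355) or replicate 3 (-0.69, adjusted p = 0.114) was omitted, and with any of 5 wild type hearts or mild line replicate 1 left out (adjusted p = 0.0522 to 0.0987). It also ended on the authors' log2 table (-0.63, adjusted p = 0.0602), without background correction (-0.64, adjusted p = 0.0613) and against its own littermates (-0.60, adjusted p = 0.173). The target that was higher in severe line hearts was Msx1, a homeobox factor, which was named after its values were seen. Msx1 read 6.93, 7.10 and 6.94 in mild line hearts and 7.11, 7.16 and 7.15 in severe line hearts, against 6.78 to 6.97 in wild type, with log2 fold changes of 0.13 (adjusted p = 0.449) and 0.28 (adjusted p = 0.025). Its call ended without any 1 severe line heart (adjusted p = 0.0835 to 0.095), without mild line littermate replicate 3 (0.27, adjusted p = 0.0508), with median scaling (0.22, adjusted p = 0.111) and against its own littermates (0.29, adjusted p = 0.0734). Rgma, a coreceptor for BMPs, fell by 0.61 in mild line hearts (adjusted p = 0.00673), with -0.18 in severe line hearts (adjusted p = 0.601). That mild line call ended without mild line replicate 2 (-0.54, adjusted p = 0.073) and against its own littermates (-0.55, adjusted p = 0.0542). Fstl1, a secreted follistatin-like glycoprotein, rose by 0.43 in severe line hearts (adjusted p = 0.018), with 0.33 in mild line hearts (adjusted p = 0.0818). It lost its call without any 1 severe line heart (adjusted p = 0.0521 to 0.0946), with median scaling (0.28, adjusted p = 0.13) and against its own littermates (0.35, adjusted p = 0.128). Itgb6 of the further list was called lower in severe line hearts, by 0.40, and was also named after its values were seen. Its call ended without any 1 severe line heart (adjusted p = 0.0525 to 0.285) and on the authors' log2 table (-0.35, adjusted p = 0.0587). With its features averaged, the log2 fold change of Itgb6 was -0.16 (adjusted p = 0.482).

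**Figure D5:**
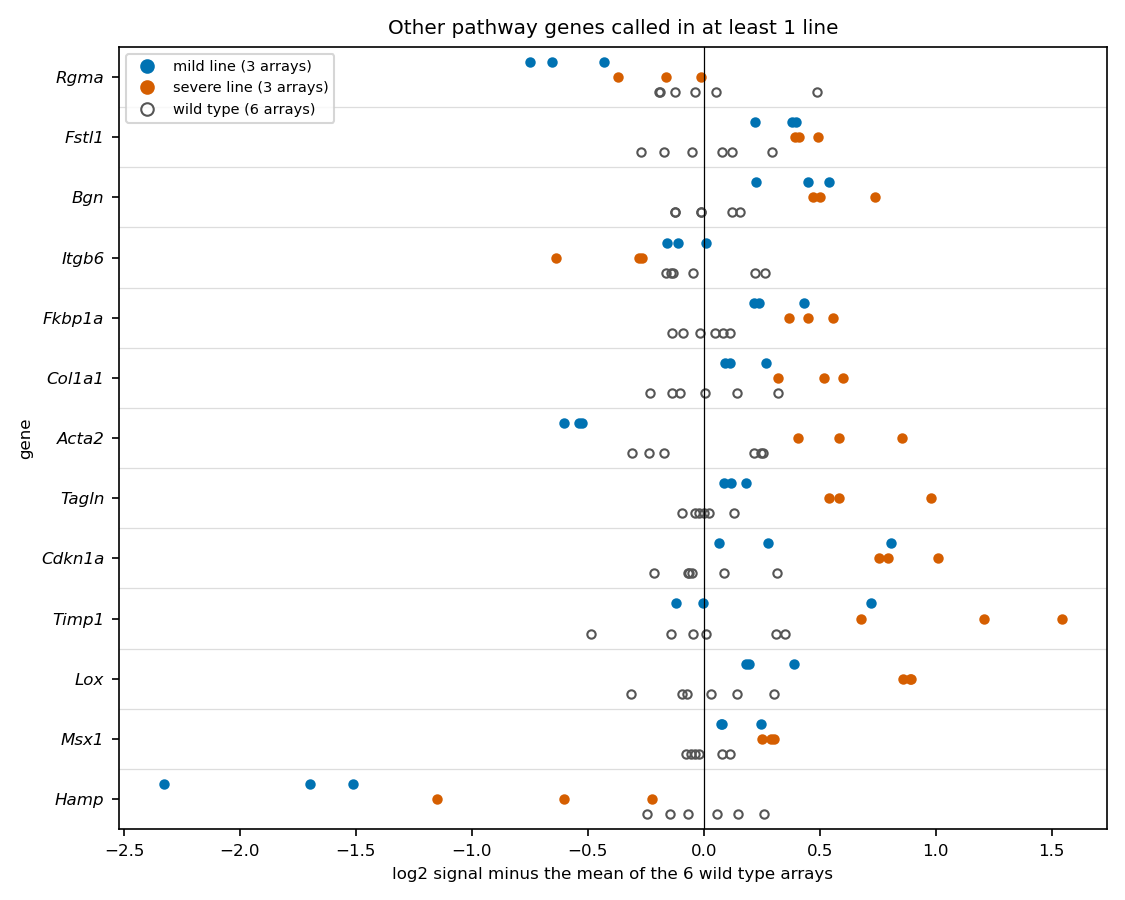
Log2 signal minus the mean of the 6 wild type arrays (x axis) on each mild line, severe line and wild type array for the other pathway genes called in at least 1 line (y axis). Hamp is lowest in the 3 mild line hearts, Acta2 lies below wild type in mild line hearts and above it in severe line hearts, and Tagln, Cdkn1a and Lox are above every wild type heart in all 3 severe line hearts.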

How the data were processed

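Total RNA from whole hearts was measured on 12 arrays in 4 groups of 3. The authors' deposited raw files hold 1 bead intensity per probe, which the values show to be unscaled from array to array, and no detection p-values. The submitters' processing notes name GenomeStudio and limma, without versions. Their deposited table of log2 values, which the authors corrected for background and quantile normalized, served as an alternative.

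Here raw intensities were background corrected (normal-exponential model, offset 50, which understates changes of dim features), quantile normalized and log2 transformed in R 4.3.3. Of 45281 probe IDs, 34885 had 1 gene symbol, 18 several and 10378 none, and 6 lines without an ID were left out. IDs with identical values were merged into 30854 features. Group means were fitted in limma 3.58.1 with moderated (empirical Bayes) variances, and p-values were adjusted over all features by the Benjamini-Hochberg method. The fit was tested on simulated data. The number of arrays limits the precision, and no scan or chip batch is given in the sources used here.

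Members with a called feature were named, with up to 4 of the brightest others per role, and up to 10 called genes per line from the further list. Msx1 and Itgb6 in severe line hearts were named beyond that number. The members and gene lists were chosen with earlier results of these data known. Alternatives changed the background correction, normalization, filter, variances, array weights, averaging, controls, replicate block, arrays fitted and call rule (the rule of the study's methods: a 2-fold change whose adjusted p is under 0.05 or whose raw p is under 0.001), or left out each array.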

Additional observations from a re-analysis of the deposited data

Results flagged for a closer look

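Smad3 had 1 wild type heart far from the other 5. Replicate 2 of the severe line's littermates read 9.194 on the log2 scale, while the others ran from 8.688 to 8.872, and the gap made up 0.636 of the range. The 45 member features were examined in this way and 1 stood out. Chance gives such a gap in about 1 in 20 groups.

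Id2 differed between the lines on its first feature, by -0.564316 on the log2 scale for the mild line minus the severe line (limma, adjusted p = 0.00886), and its second feature did not pass that test (-0.09, adjusted p = 0.853).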

How the results depend on the processing

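Counts of called members are out of 45 features, or of 36 with features above the median only and 39 with features of a gene averaged. In the mild line, 6 as reported became 3 with a background offset of 16, 3 with median scaling, 1 against the line's own littermates, 2 with a replicate block and 0 under the 2-fold rule, and 1 to 6 with 1 array left out. In the severe line, 4 became 2 with median scaling, 7 with features above the median only and 0 under the 2-fold rule, and 1 to 6 with 1 array left out. Between the lines, 1 became 2 with features above the median only or with array weights, and 0 with averaged features, own littermates, a replicate block or the 2-fold rule, and 0 to 1 with 1 array left out. The offset of 16 ended the mild line calls of Bmp4, Ltbp1 and Ltbp3 and the severe line call of Id2, and median scaling ended these and the severe line call of Tgfb2. The count between littermate groups stayed at 0 under each setting run. No member reversed its direction where it was called. The cause of these shifts was not tested.

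Over all features, 1096 calls in the mild line became 620 with an offset of 16, 721 against own littermates, 621 with the block, 83 under the 2-fold rule and 623 to 1072 with 1 array left out. For the severe line, 1019 became 493, 716, 534, 42 and 489 to 1090 under the same settings, and between the lines 422 became 169, 82, 76, 42 and 195 to 486. With median scaling the counts were 806 in the mild line, 1127 in the severe line and 346 between the lines. With features above the median only they were 1226, 1165 and 509 of 15427 features. The 27 features called between littermate groups became 0 with the offset of 16, 17 with median scaling, 2 under the 2-fold rule and 2 to 33 with 1 array left out. At an unadjusted p under 0.05 that comparison had 3074 features.

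The labels do not say whether the replicate numbers pair the hearts. Same-numbered hearts of a line and its littermates correlated in their deviations at 0.106, -0.0252 and -0.0717 in the mild line and at -0.172, -0.381 and 0.0147 in the severe line, and only mild line replicate 1 correlated best with its own number. With deviations taken from means of 3 hearts, these correlations cannot show whether same-numbered hearts belong together. The block was run by replicate number, as an alternative only. Signals near the background level limit what can be said of Bmp2, Bmp7, Mstn, Gdf6, Acvrl1, Ltbp2, Grem1 and Smad7. Wild type signals of Fstl3, Fst, Bmp5 and Bmp6 were also close to that level.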
